A study of Mus musculus with 16 samples.

Results

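To ask how heterozygosity for Arid1b relates to the adult cortical transcriptome when olfactory bulb RNA is low, HT and WT mice were compared in the samples of medial prefrontal cortex in which Eomes had a normalized read count under 100. Eomes is a transcription factor gene that marks the mitral and tufted cells of the olfactory bulb, a structure that lies directly in front of the frontal cortex. Of the 16 mice of the series, 11 met this limit, 7 HT (HT-Veh replicates 1 to 3 and HT-Flx replicates 1 to 4) and 4 WT (WT-Veh replicates 2 to 4 and WT-Flx replicate 3). All were male C57BL/6N mice at postnatal day 120. HT mice carried, in every cell, 1 copy of a protein-truncating Arid1b allele in which genome editing with guides on both sides of exon 5 had deleted the stretch between them and left the bases TT, and WT mice were wild type. The study's description of its targeting strategy mentions only the insertion of TT at the start of exon 5. From postnatal day 3 to 21 the dams drank water with 0.2% saccharin, either alone (Veh) or with fluoxetine at 0.1 mg per ml (Flx), an inhibitor of serotonin reuptake that reached the pups through milk. The drug had therefore been withdrawn long before sampling, and the dose that each pup took in is not given in the sources used here. Treatment was not balanced between the genotypes, since 4 of the 7 HT mice and 1 of the 4 WT mice had received fluoxetine. The sources used here do not tie the mice to dams or litters, so the p-values measure the spread between these mice and littermates may be among them.

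Arid1b encodes an AT-rich interaction domain subunit of the SWI/SNF (BAF) complex, which uses ATP to move nucleosomes and thereby opens chromatin at enhancers and promoters. A complex holds either ARID1B or its paralogue ARID1A. Loss of 1 copy of ARID1B in people causes Coffin-Siris syndrome and intellectual disability, and the gene is a recognised risk gene for autism. In the medial prefrontal cortex, excitatory neurons are stacked in layers and are controlled by inhibitory neurons that express markers such as parvalbumin, somatostatin or calretinin.

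The exon that the editing targeted is shown because it defines the HT genotype. In the principal transcript of the GENCODE annotation, exon 5 of 20 lies on the plus strand at chr17:5242828-5243071 (GRCm38) within the coding sequence. It has 244 bases, which is not a multiple of 3, and occurs in 4 of the 7 annotated Arid1b transcripts. The wild-type sequence, 5′ to 3′, is as follows, all in lower case because the deletion takes in the whole exon.
Arid1b exon 5: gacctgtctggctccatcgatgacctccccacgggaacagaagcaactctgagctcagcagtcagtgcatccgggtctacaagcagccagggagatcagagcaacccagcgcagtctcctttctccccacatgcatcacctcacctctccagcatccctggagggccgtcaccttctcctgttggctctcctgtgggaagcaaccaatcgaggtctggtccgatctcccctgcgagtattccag
This exon makes up 2.15% of the 11325 bases of that transcript. The normalized count of Arid1b pools reads over all of its exons, so it does not separate the mutant from the wild-type allele.

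Values are estimated read counts per gene that the authors divided by DESeq2 normalization factors, and a difference is always HT minus WT on the log2(value + 1) scale. The mice were selected on the Eomes count itself, whose values are therefore only described. Among the 11 mice it lay between 0, in an HT mouse, and 25.3, in WT-Flx replicate 3. Among the 5 left out it lay between 149, in WT-Flx replicate 1, and 899. Of the 10 other bulb markers, 9 were higher in all 5 left-out mice than in any of the 11, and Meis2 overlapped. Cdhr1, a photoreceptor cadherin gene that is strong in mitral cells, ran from 63.3 to 193 in the 11 mice and from 692 to 3485 in the others, so bulb markers were low in the 11 mice but not at 0. Among markers of cortical excitatory neurons, Slc17a7, the vesicular glutamate transporter, was high at 37178 to 43463. Totals lay between 99.6% and 104% of their mean over all 16 mice, and the sequencing depth is unknown. Correlations between pairs of the 11 samples across genes were 0.976 to 0.986 on the log2 scale.

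**Figure D1:**
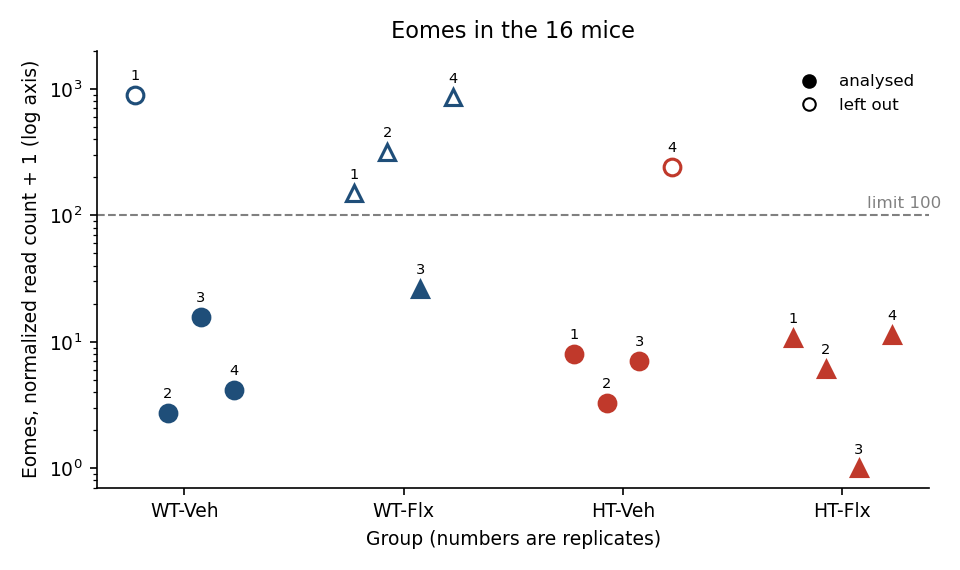
Normalized read count of Eomes plus 1, on a log axis, in each of the 16 mice by group. Circles are vehicle and triangles fluoxetine mice, blue is WT and red HT, and the numbers are replicates. Filled symbols are the 11 mice below the dashed limit of 100, the highest of them at 25.3, and open symbols the 5 above it, the lowest at 149. A single WT-Flx mouse remained.

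Few genes separated the genotypes. Of 17118 genes tested with limma, 4 passed an adjusted p of 0.05 (0.0234%), with Otof and Wfs1 higher (0.0117%) and Rspo1 and Arid1b itself lower (0.0117%) in HT mice. A further 15 genes had an adjusted p between 0.0646 and 0.0925, 13 of them with higher and 2 with lower values in HT. Differences were small in most genes and had no common shift, with a median of 0.00051 and 50.2% of genes above 0. Before adjustment, 1147 genes had p under 0.05 (6.7%), 627 with higher (3.66%) and 520 with lower values (3.04%). The HT and WT values did not overlap for 240 genes (1.4%), 159 of them higher (0.929%) and 81 lower (0.473%) in HT. The number that passed depended on single mice. It was 9 without HT-Flx replicate 1, HT-Flx replicate 2 or WT-Flx replicate 3, 7 without HT-Flx replicate 3, 2 without HT-Veh replicate 2 or WT-Veh replicate 4, and 1, Rspo1, without WT-Veh replicate 2.

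**Figure D2:**
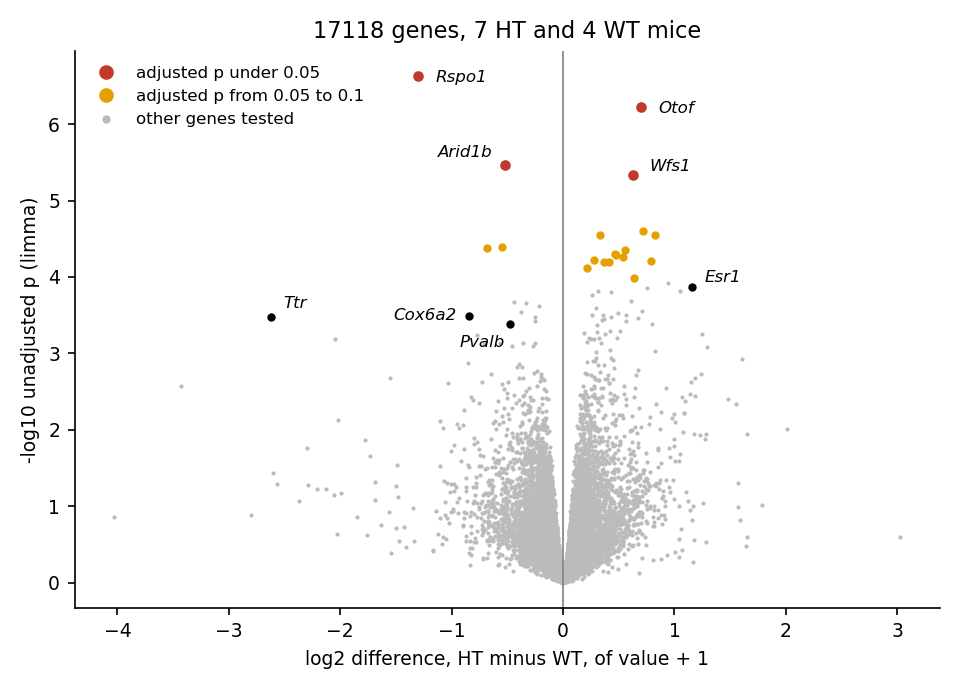
Log2 difference (HT minus WT, of value + 1) of each of the 17118 genes tested against -log10 of its unadjusted limma p, from 7 HT and 4 WT mice. Red points are the 4 genes with an adjusted p under 0.05, orange points the 15 genes with an adjusted p from 0.0646 to 0.0925, and small black points are named genes with a higher adjusted p. Among the orange points 13 of 15 lie to the right of 0.

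Arid1b (ENSMUSG00000069729, chromosome 17, 4994332 to 5347656, plus strand) was lower in HT mice. Its normalized count ran from 1545 to 2005 in the 7 HT mice, with a median of 1671, and was 2255 in WT-Flx replicate 3 and 2453, 2831 and 2401 in WT-Veh replicates 2, 3 and 4. Every HT value lay below every WT value. HT mice averaged 69.6% of the WT level (1729 ± 146, SD, n = 7, against 2485 ± 245, n = 4). The log2 difference was -0.52 (SE 0.07, 95% interval -0.68 to -0.37, limma adjusted p 0.0195). An exact permutation test, two-sided, gave p 0.00303, the smallest that 330 arrangements allow, and p 0.01 with genotype permuted within treatment, again the smallest possible. The 4 HT-Flx mice, at 1545 to 1671, were all below the 3 HT-Veh mice, at 1753 to 2005, and the WT-Flx mouse was the lowest of the WT. With treatment as a covariate the genotype difference was -0.46 (adjusted p 0.0152) and in vehicle mice alone it was -0.47 (adjusted p 0.0629). The adjusted p was above 0.05 when HT-Veh replicate 2 (0.0587) or WT-Veh replicates 2, 3 or 4 (0.122, 0.0983 and 0.0928) were left out.

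No other subunit of the complex passed. Of 31 SWI/SNF genes tested, Arid1b alone did, and the median difference of the list was -0.01, beside 0.00051 for all genes. Arid1a, whose product can take the place of ARID1B, had means of 4483 in HT and 4307 in WT (difference 0.06, unadjusted p 0.208). At an unadjusted p under 0.05, 1 subunit was higher, Bcl7a (0.22, adjusted p 0.388), and 2 were lower, Arid1b and Bcl11a (-0.13, adjusted p 0.694). With Arid1b included, these make 9.68% of the list, beside 6.7% of all genes. The catalytic subunits Smarca4 and Smarca2 differed by -0.04 and 0.06. Dpf3, a neural reader of acetylated and methylated histones, had the highest difference of the list at 0.33 (unadjusted p 0.0587).

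Rspo1 (ENSMUSG00000028871, chromosome 4, 124986430 to 125009099, plus strand) had the smallest p. It encodes R-spondin 1, a secreted protein that binds LGR receptors and strengthens Wnt signalling by removing ubiquitin ligases that clear Wnt receptors. Its normalized count ran from 85.6 to 159 in HT mice, with a median of 109, and was 271 in WT-Flx replicate 3 and 303, 306 and 279 in WT-Veh replicates 2, 3 and 4. The genotypes were far apart, with no HT value near the WT range. The difference was -1.30 (SE 0.15, interval -1.61 to -0.98, adjusted p 0.00402), which left HT mice at 41.2% of the WT average. It was -1.38 in vehicle mice alone (adjusted p 0.00655) and -1.31 with treatment as a covariate (adjusted p 0.0152). It passed without any 1 of the 11 mice, with differences from -1.37 to -1.22.

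The rest of the Wnt and R-spondin genes had differences of either sign. Of 32 tested, 3 were higher and 5 lower at an unadjusted p under 0.05, beside 3.66% and 3.04% of all genes, and only Rspo1 passed. Sfrp1, a secreted antagonist that binds Wnt ligands, ran from 447 to 566 in HT and from 369 to 406 in WT without overlap (difference 0.35, adjusted p 0.141). Among the ligands, Wnt7b differed by 0.28 (adjusted p 0.491) and Wnt5a by -0.30 (adjusted p 0.657). The R-spondin receptors Lgr5 and Lgr6 had differences of -0.45 and -0.49 (unadjusted p 0.033 and 0.0472), and Rspo3 one of -0.34. Axin2 and Lef1, which canonical Wnt signalling induces in many tissues, differed by 0.03 and -0.04. The median of the list was 0.01.

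Otof (ENSMUSG00000062372, chromosome 5, 30367062 to 30461932, minus strand) was the higher gene with the smallest p. It encodes otoferlin, a calcium sensor for vesicle release best known from inner hair cells of the ear, and in cortex its transcript marks superficial excitatory neurons. Its count ran from 1416 to 1869 in HT mice, with a median of 1576, and was 1142 in WT-Flx replicate 3 and 938, 881 and 970 in WT-Veh replicates 2, 3 and 4. No WT mouse reached the HT range. HT mice averaged 163% of the WT level (difference 0.70, SE 0.09, interval 0.52 to 0.88, adjusted p 0.00509). The difference was 0.77 in vehicle mice alone (adjusted p 0.00969) and 0.67 with treatment as a covariate (adjusted p 0.0152). Without WT-Veh replicate 2 the adjusted p was 0.051.

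Wfs1 (ENSMUSG00000039474, chromosome 5, 36966104 to 36989205, minus strand) encodes wolframin, a membrane protein of the endoplasmic reticulum whose loss causes Wolfram syndrome. Its count ran from 3606 to 5514 in HT mice, with a median of 3985, and was 2861 in WT-Flx replicate 3 and 2711, 2506 and 2721 in WT-Veh replicates 2, 3 and 4. The genotypes did not overlap, and HT-Flx replicate 2 stood above the other HT mice, which reached 4350. HT mice averaged 155% of the WT level (difference 0.62, SE 0.09, interval 0.43 to 0.82, adjusted p 0.0199). In vehicle mice alone the difference was 0.62 (adjusted p 0.00655), and with treatment as a covariate it was 0.60 and did not pass (adjusted p 0.0739). It did not pass without HT-Veh replicate 2 (0.0702) or WT-Veh replicates 2, 3 or 4 (0.122, 0.147 and 0.118). Rspo1, Otof and Wfs1 each gave the same exact permutation p as Arid1b, 0.00303, and 0.01 within treatment, both the smallest possible. Unlike Arid1b, these genes were picked for their separation in the same mice. Groups that do not overlap give a permutation p at or near this limit, so it adds no further support.

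**Figure D3:**
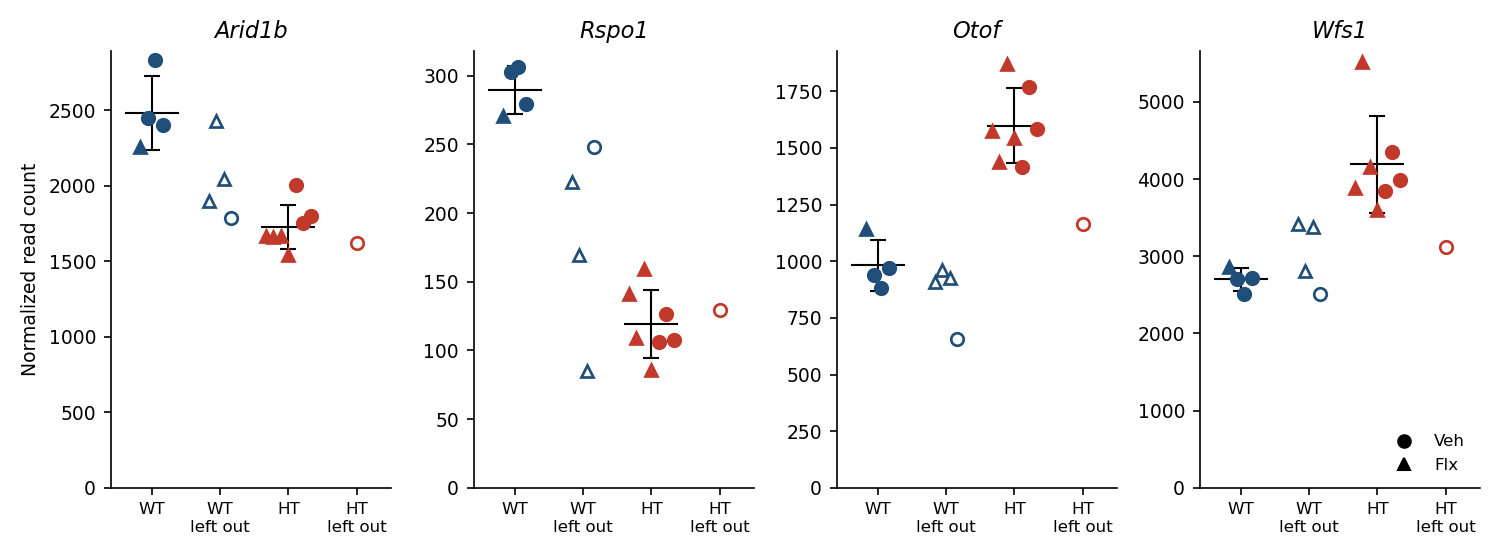
Normalized read counts of Arid1b, Rspo1, Otof and Wfs1 in each mouse, on axes that start at 0. Filled symbols are the 4 WT and 7 HT mice compared, open symbols the mice left out for Eomes, circles vehicle and triangles fluoxetine, with black bars for the mean ± SD of the mice compared. Filled WT and HT symbols do not overlap in any panel, and the filled WT triangle is the WT mouse nearest to the HT values in all 4.

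Treatment could be seen only in part, because a single WT-Flx mouse was left. For all 4 genes that passed, this mouse was the WT mouse nearest to the HT mean. This also held for 8 of the 19 genes with an adjusted p under 0.1 (42.1%), for 313 of the 1147 genes with an unadjusted p under 0.05 (27.3%) and for 23.0% of all genes tested. Within the HT mice, log2 differences (Flx minus Veh) of the 19 genes ran from -0.18 for Arid1b to 0.23 for Ankrd63, an ankyrin repeat gene. Fluoxetine and vehicle values of Arid1b did not overlap in HT mice, while those of the other 18 of the 19 genes did. How often values do not overlap among all genes was not counted. With treatment as a covariate 4 genes passed (0.0234%), Rspo1, Otof, Arid1b and Myl4, a myosin light chain gene that was at 651 to 906 in HT and 381 to 634 in WT. The difference that goes with fluoxetine in WT rests on 1 mouse and was not tested.

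The vehicle mice alone, 3 HT and 3 WT, gave 11 genes of 16508 tested (0.0666%), 8 higher and 3 lower in HT, and 7 of the 11 were among the 19 genes. Besides Rspo1, Otof and Wfs1 these were Ccdc3, Tmem181b-ps, Ccn3 and Trp53i11. The other 4 were Nos1, the neuronal nitric oxide synthase, Cpne6, a calcium-binding copine of neurons, 1110008P14Rik and Slc15a4. These mice are part of the 11, so their agreement in direction is not independent. The fluoxetine mice alone, 4 HT against 1 WT, gave 2 genes of 16157 (0.0124%), Trpc2 and Gm14288, and this fit assumes that the 1 WT mouse varies like the HT mice.

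The 15 genes that came next did not pass, and their groups did not overlap. By the naming rule, the higher genes were Ccdc3, Tnfrsf8 and Rasgrf2 and the lower genes Syt2, Adssl1 and Nrep, of which Nrep (adjusted p 0.129) was not among the 15. Ccdc3, which encodes a secreted coiled-coil protein, ran from 606 to 1000 in HT and from 409 to 537 in WT (difference 0.72, SE 0.12, adjusted p 0.0646). Tnfrsf8, the CD30 receptor of the tumour necrosis factor family, ran from 174 to 266 and from 98.2 to 151 (difference 0.82). Rasgrf2, a calcium-activated exchange factor for Ras, ran from 7455 to 9189 and from 6273 to 6755 (difference 0.33). Syt2, a fast calcium sensor for transmitter release, ran from 974 to 1260 in HT and from 1294 to 1942 in WT (difference -0.54). Adssl1, an enzyme of the purine nucleotide cycle, ran from 266 to 421 and from 458 to 641 (difference -0.69). Nrep ran from 1083 to 1480 and from 1532 to 2055 (difference -0.44).

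The others were named after their values were seen, except Grin3a, which the naming rule also picked from the glutamate receptor list. Pdyn, the precursor of the opioid peptide dynorphin, ran from 678 to 1044 in HT and from 515 to 609 in WT (difference 0.55). Grin3a, an NMDA receptor subunit that lowers calcium entry, ran from 1123 to 1428 and from 946 to 1064 (difference 0.37). Bhlhe22, a transcription factor of cortical projection neurons, ran from 1074 to 1290 and from 770 to 955 (difference 0.41), and Thra, the thyroid hormone receptor alpha, from 17068 to 18517 and from 14951 to 15683 (difference 0.22). Ddn, which encodes the postsynaptic and dendritic protein dendrin, ran from 38486 to 45793 and from 32195 to 33845 (difference 0.28). Krt77, Ankrd63, Trp53i11 and Ccn3 had differences of 0.79, 0.54, 0.47 and 0.47. Each of these 9 genes and Rasgrf2, Tnfrsf8, Syt2 and Adssl1 had an adjusted p of 0.0646, apart from Thra at 0.0717.

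The 5 mice that the limit left out, 1 HT (HT-Veh replicate 4) and 4 WT, gave a second look at these genes. They hold bulb RNA in differing amounts and allow no test, but their values took no part in the comparison above. All 4 genes that passed lay on the same side in them, with log2 differences of -0.33 for Arid1b, -0.37 for Rspo1, 0.45 for Otof and 0.06 for Wfs1. The HT mouse was beyond all 4 WT mice for Arid1b, at 1619 against 1787 to 2433, and for Otof, at 1163 against 655 to 962. It lay within the WT range for Rspo1, at 130 against 85.3 to 248, and for Wfs1, at 3123 against 2511 to 3417. Of the 19 genes, 15 were on the same side (78.9%), compared with 62.9% of the 1147 genes with an unadjusted p under 0.05 and 54.6% of all genes tested. Pdyn (801 against 333 to 626) and Ankrd63 (1145 against 758 to 930) were among the 7 of 19 (36.8%) with the HT mouse beyond all 4 WT, while 18.8% of all genes had it beyond on the side of their difference. Syt2, Adssl1, Ccn3 and Thra were on the other side, each by 0.03 or less on the log2 scale.

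When all 16 mice were compared by genotype, 6 of 17567 genes passed (0.0342%), and only Otof of the 4 was among them (difference 0.74, adjusted p 0.00744). Also among the 6 and higher in HT were Tmem181b-ps (0.90, adjusted p 0.0115), Pdyn (0.68, 0.0225) and Esr1, the estrogen receptor alpha gene (1.04, 0.0435). Gm48583 and Gm48678 passed with lower values in HT. Rspo1 was at -0.89 (adjusted p 0.18), Arid1b at -0.39 (0.0979) and Wfs1 at 0.50 (0.0891). With log2(Eomes + 1) as a covariate, Otof alone passed (0.00569% of the genes, 0.61, adjusted p 0.046), and Rspo1 and Arid1b were at -1.16 (adjusted p 0.0522) and -0.49 (adjusted p 0.0512).

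**Figure D4:**
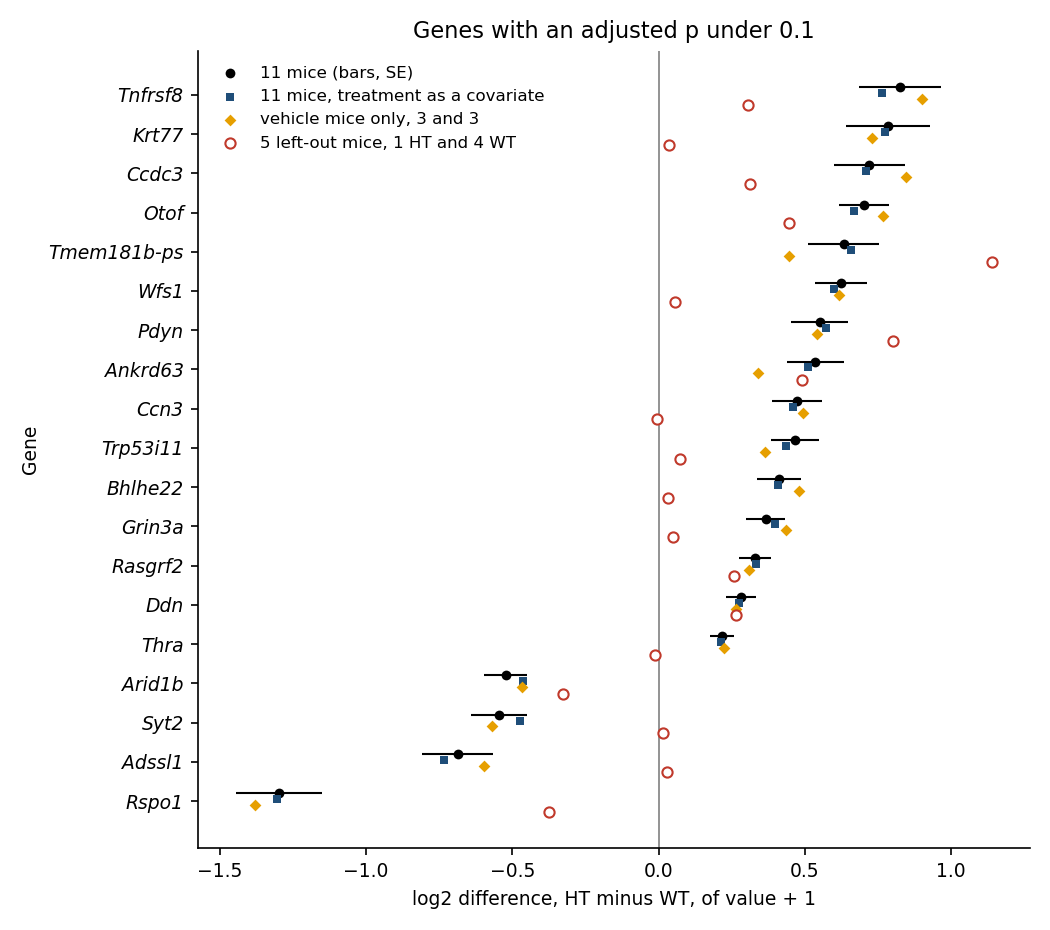
Log2 differences (HT minus WT, of value + 1) of the 19 genes with an adjusted p under 0.1. Black circles with SE bars are the 11 mice, blue squares the same mice with treatment as a covariate, orange diamonds the 3 HT and 3 WT vehicle mice among them, and open red circles the 5 left-out mice, 1 HT and 4 WT. The first 3 are on the same side for every gene and share mice, and the open circles are on that side for 15 of 19.

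Among markers of cortical layers, the superficial list held both called genes with the smallest p. Of 16 upper-layer markers, Otof was higher and Rspo1 lower, and at an unadjusted p under 0.05 Rasgrf2, Calb1 and Cdh13 were also higher, which makes 4 higher and 1 lower (31.25% of the list, beside 6.7% of all genes). Like the other lists, it was chosen with earlier results of these data known, so its share is a description without a test. Calb1, the calcium buffer calbindin, ran from 3640 to 4409 in HT and from 3223 to 3475 in WT (difference 0.26, adjusted p 0.141). The transcription factors Cux1, Cux2 and Rorb of this list had differences of -0.04, 0.03 and -0.09. The median of the list was 0.07. Of 17 deep-layer markers none passed and the median was -0.04, with Cplx3, a complexin of subplate-derived neurons, at -0.38 and Ntsr1 and Rprm, both of layer 6 neurons, at 0.62 and 0.28 (adjusted p 0.504 to 0.711). Since these are bulk samples, fewer cells of a type and less RNA per cell cannot be told apart.

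Markers of inhibitory neurons had differences of either sign. None of 19 passed, and the median was -0.11. At an unadjusted p under 0.05, 1 was higher and 5 were lower (31.6% of the list, beside 6.7% of all genes in either direction and 3.04% lower). Pvalb, the calcium buffer of fast-spiking basket cells, ran from 622 to 900 in HT, with a median of 775, and was 1126, 1132 and 1117 in the WT-Veh mice but 838 in WT-Flx replicate 3 (difference -0.48, adjusted p 0.148). All HT values were below the vehicle-treated WT mice, and the fluoxetine-treated one lay within the HT range. Calb2, which encodes calretinin, ran from 251 to 337 in HT and was 195, 169 and 162 in WT-Veh and 249 in WT-Flx replicate 3 (difference 0.61, adjusted p 0.129). Calb2 is also strong in the bulb, with 1003 to 3601 in the 5 left-out mice, and its difference turned to -0.77 when all 16 mice were used. Npy, Dlx1 and Sst were at -0.25, -0.23 and -0.16, and the GABA-synthesizing enzymes Gad1 and Gad2 at -0.14 and 0.06.

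Of 22 ionotropic and metabotropic glutamate receptor genes none passed, 6 were higher and 0 lower at an unadjusted p under 0.05 (27.3%, beside 6.7% of all genes), and the median was 0.05. Among them the groups did not overlap for Grin3a, described above, and for the kainate receptor subunit Grik4 (811 to 932 in HT, 714 to 796 in WT). Grm5, Grin2b and Gria1 were also among the 6, with differences of 0.19, 0.21 and 0.13. The obligatory NMDA receptor subunit Grin1 and the AMPA receptor subunit Gria2 were at -0.04 and -0.03. Of 13 GABA-A receptor genes, 2 were higher before adjustment (15.4%, beside 3.66% of all genes), Gabrb1 (0.18) and Gabra2 (0.14), and the median was 0.05.

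Scaffold genes of the synapse had small differences and a few release genes larger ones. None of 26 scaffold and adhesion genes had an unadjusted p under 0.05, and their differences lay between -0.07 and 0.15 with a median of 0.03. Of 21 presynaptic genes none passed, and 2 were higher and 1 lower at an unadjusted p under 0.05 (14.3%, beside 6.7% of all genes). Syn2, a synapsin that tethers vesicles, ran from 12347 to 16178 in HT and from 10777 to 11887 in WT (difference 0.30, adjusted p 0.148). Cplx1, a complexin that clamps release, ran from 14266 to 17171 in HT and from 17624 to 19687 in WT (difference -0.20, adjusted p 0.337). Neither pair of groups overlapped, and Syn3 differed by 0.23. The median of the list was -0.04.

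The markers of myelinating oligodendrocytes were the list with the lowest median. All 18 had a difference below 0, from -0.44 to -0.08 with a median of -0.28, and 9 of the 18 had an unadjusted p under 0.05, beside 3.04% of all genes in that direction, though none passed after adjustment. Mog, a myelin surface protein, ran from 552 to 877 in HT, with a median of 671, and was 976 in WT-Flx replicate 3 and 811, 908 and 856 in WT-Veh replicates 2, 3 and 4 (difference -0.40, adjusted p 0.337). Only HT-Flx replicate 1, at 877, reached the WT range. Mobp, Cldn11 and Mal, which encode proteins of compact myelin and its junctions, were at -0.44, -0.39 and -0.32, and the lineage factors Olig1 and Olig2 at -0.13 and -0.08. Summed over the list, HT mice ran from 73535 to 130264 with a median of 89607 and WT mice from 103380 to 127651, so the highest mouse of all was an HT mouse, HT-Flx replicate 1. In the 5 left-out mice the sum was 114661 in the HT mouse and 76090 to 121975 in the WT mice. How much myelinated tissue each sample held, and its part in the other results, was not tested. The precursor list was not below 0, with a median of 0.07 over 9 genes, and Lhfpl3 at 0.21 and Tnr at 0.14 on the other side of 0 from Bcas1, a gene of newly formed oligodendrocytes, at -0.34.

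Astrocyte, microglia and vessel markers had medians near 0. The 15 astrocyte markers had a median of -0.04 with Aldh1l1, a folate enzyme, at -0.21 (adjusted p 0.607), and the 15 microglia markers had one of 0.05 with Gpr34 at 0.19 (adjusted p 0.707). Differences were above 0 for 6 astrocyte and 13 microglia markers and below 0 for 9 and 2, beside 50.2% of all genes above 0. No marker of endothelial and mural cells had an unadjusted p under 0.05, and Tagln, of smooth muscle, came closest (-0.24, unadjusted p 0.182). Of 12 meningeal markers 1 was higher before adjustment (8.33%, beside 3.66% of all genes higher). It was the fibrillar collagen gene Col3a1, at 46.2 to 160 in HT and 44.7 to 109 in WT.

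Markers of neighbouring structures also differed between mice. Ttr, the transthyretin gene that the choroid plexus expresses very strongly, ran from 5.38 to 11.1 in HT mice and was 10.5 in WT-Flx replicate 3 but 48.7, 74.8 and 243 in WT-Veh replicates 2, 3 and 4. The WT-Veh mice alone stood apart, and the difference of -2.62 did not pass (adjusted p 0.141). Of the 5 choroid plexus genes tested, Kl was at 0.62 and the median was 0.0031, and the sum over the list ran from 124 to 211 in HT and from 140 to 378 in WT. With this list as a covariate, a setting chosen after the data were seen, Rspo1 (-1.36, adjusted p 0.0236), Otof (0.59, 0.0307) and Wfs1 (0.68, 0.0413) passed and Arid1b did not (-0.50, 0.0879), among 5 of 17118 genes in all (0.0292%). Striatal markers varied within both genotypes, with a summed level of 7168 to 14378 in HT and 8909 to 15911 in WT. Of 12 tested, 10 were below 0 and the median was -0.25, but none had an unadjusted p under 0.05, and Drd2, the dopamine D2 receptor, overlapped (18.8 to 327 in HT, 130.5 to 322 in WT). The residual bulb list had a median of -0.13 over 9 genes, with Meis2 at 0.26 and Dlx1 at -0.23, and with that list as a covariate 10 genes passed (0.0584%), the 4 among them.

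Mitochondrial and ribosomal lists had medians near 0. Of 88 nuclear genes of oxidative phosphorylation, 68 were below 0, 8 of them with an unadjusted p under 0.05 and none in the other direction (9.09%, beside 3.04% of all genes lower), and the median was -0.04. Of all genes tested, 50.2% were above 0. Cox6a2, the heart and muscle form of a cytochrome c oxidase subunit, ran from 40.8 to 90.6 in HT and from 102 to 122 in WT without overlap (difference -0.85, adjusted p 0.141). The next, Ndufa1, Ndufa5 and Ndufa10 of complex I, were at -0.28, -0.19 and -0.11. The 80 cytosolic ribosomal protein genes had a median of 0.03, with Rpl37 at 0.25 and Rpl30 at -0.15. The 78 mitochondrial ribosomal protein genes had a median of -0.02 and 5 lower at an unadjusted p under 0.05 (6.41%, beside 3.04% of all genes lower), and the 13 genes encoded in the mitochondrion had one of -0.01 with mt-Co2 at 0.34 (adjusted p 0.769).

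The study examined the histone deacetylase HDAC4, its partner MEF2A and Arc mainly as proteins, by immunoblot. For their transcripts it reported no significant change in HT mice at about postnatal day 120, in whole brain or medial prefrontal cortex. The values here are RNA, and neither Hdac4 nor Mef2a passed. Hdac4 ran from 1854 to 2801 in HT, with a median of 2002, and was 1577 in WT-Flx replicate 3 and 2151, 2204 and 2046 in WT-Veh replicates 2, 3 and 4 (difference 0.08, interval -0.15 to 0.31, adjusted p 0.933). The groups overlapped, and the difference was -0.10 in vehicle mice alone. Mef2a ran from 4210 to 5906 in HT and from 4386 to 4865 in WT (difference 0.10, interval -0.05 to 0.25, adjusted p 0.855). Arc, an activity-induced gene of the synapse, ran from 1373 to 10418 in HT and from 3684 to 6079 in WT (difference -0.38, interval -1.20 to 0.44, adjusted p 0.891). Exact permutation p-values were 0.558, 0.258 and 0.479, and 0.43, 0.23 and 0.45 within treatment. In the list of class IIa deacetylases and MEF2 factors, Hdac5 had the smallest p (-0.17, unadjusted p 0.0598), and none of the 7 tested reached 0.05.

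Lists of related genes held no gene that passed. None of 10 fragile X protein targets that the study named had an unadjusted p under 0.05, with a median of -0.04 and Arhgef11 at -0.10, and this list is not independent of the study's own results. Of 20 immediate early genes, Ier2 (-0.43) and Per1 (-0.31) were lower before adjustment (2 of 20, beside 3.04% of all genes lower) and the median was -0.08. Of 15 serotonin genes, 1 was higher before adjustment (6.67%, beside 3.66% of all genes higher), Maob, the monoamine oxidase of glia and serotonin neurons (0.17, adjusted p 0.553). Htr2c and Htr2a were at 0.43 and 0.26, and Htr1f at -0.44. Differences of this list ran from -0.54 to 0.43. Of the 15, 1 was lower in HT without overlap, beside 0.473% of all genes, and 0 were lower at an unadjusted p under 0.05. None of the 4 migrating neuroblast markers reached an unadjusted p of 0.05, with Sox11 at 0.17.

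**Figure D5:**
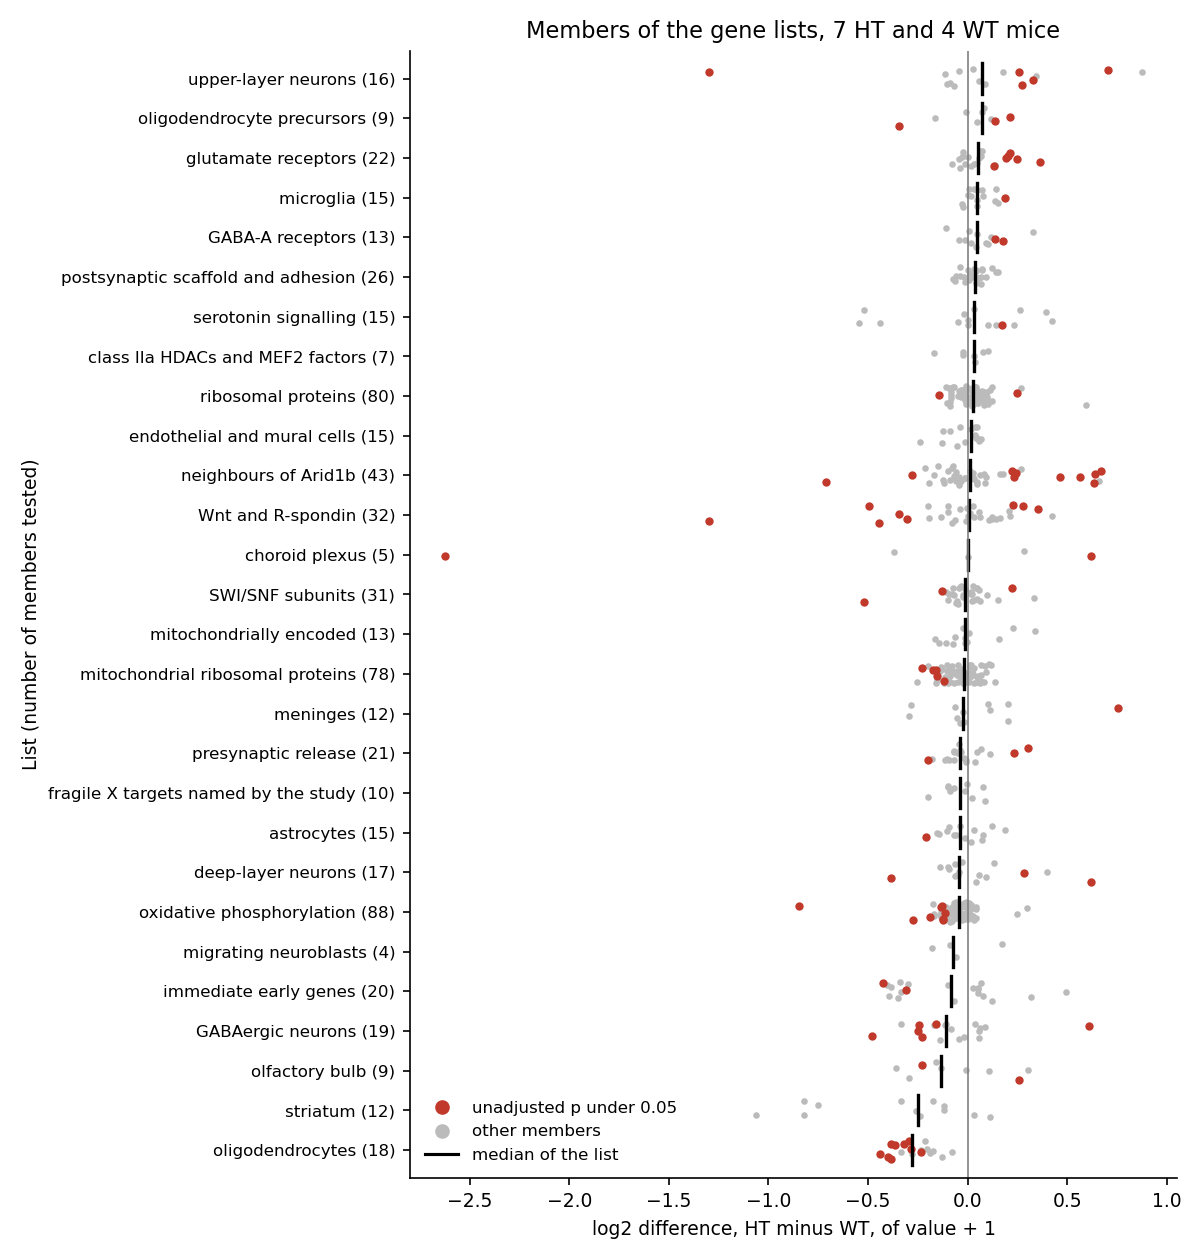
Log2 differences (HT minus WT, of value + 1) of every tested member of the 28 gene lists, in order of the median, with the number of members tested in brackets. Red points have an unadjusted p under 0.05, grey points do not, and black lines are medians, from -0.28 for oligodendrocytes to 0.07 for upper-layer neurons. The Rspo1 point stands at -1.30 in the upper-layer and the Wnt lists, and Ttr at -2.62 in the choroid plexus list.

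Genes near Arid1b were examined because they are inherited together with the edited allele. Of 43 genes tested within 5 Mb on chromosome 17, 8 were higher and 2 lower at an unadjusted p under 0.05 (23.3%, beside 6.7% of all genes), and none passed. Tmem181b-ps (chromosome 17, 6438524 to 6467022, 1.09 Mb from Arid1b), a pseudogene, ran from 5607 to 9252 in HT, with a median of 7382, and was 3569 in WT-Flx replicate 3 and 5385, 4800 and 4963 in WT-Veh replicates 2, 3 and 4 (difference 0.63, adjusted p 0.0925). The groups did not overlap, and in the left-out mice the HT mouse, at 7052, was above the WT mice, at 2520 to 3973. With all 16 mice Tmem181b-ps passed (difference 0.90, limma adjusted p 0.0115). Tmem181a, Tmem181c-ps, Dynlt1b and Dynlt1c, all between 0.909 and 1.27 Mb away, had differences of 0.23, 0.64, 0.46 and 0.67, and Pisd-ps2, on the other side at 1.91 Mb, one of 0.56. Several of these are closely similar copies or pseudogenes among which reads can be divided, so the value of any single one is uncertain, and Dynlt1f of the same family was at -0.03. Zdhhc14 (0.145 Mb away) and Rps6ka2 differed by 0.22 and 0.24, and Fndc1 and Prr18 by -0.71 and -0.28.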

How the data were processed

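Medial prefrontal cortex of 16 mice was sequenced as stranded, paired-end poly(A) libraries. Per the labels and the study's methods, the authors quantified transcripts with Salmon 1.1.0 on GRCm38 with correction for GC bias, summed them per gene with tximport and normalized with DESeq2 1.30.1, in R 4.1.1 according to the submitters' processing notes. The deposited values are this signal, normalized read counts of 18424 genes, of which 18411 matched GENCODE M21. They are not whole reads, depth is unknown, and no count model was used.

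Mice with Eomes under 100 were kept, a choice that rests on measured values. Genes that reached a value of 10 in 4 or more mice were tested on log2(value + 1) with limma 3.58.1 (R 4.3.3), moderated with a mean trend, with genotype as the only term. Benjamini-Hochberg adjusted p under 0.05 counted as passing. P-values are from limma unless they are called permutation p-values. Those came from two-sided exact permutation of the difference of mean log2(value + 1). They were computed only for Arid1b, Rspo1, Otof, Wfs1, Hdac4, Mef2a and Arc. The named genes were Arid1b, Hdac4, Mef2a and Arc, the up to 12 passing genes of each direction with the largest difference and no overlap, filled to 5 by the smallest p, and the up to 4 members of each list with the smallest p. Other names, among them further list members, were chosen after values were seen, as was the choroid plexus covariate. The members and lists were chosen with earlier results of these data known, and the fragile X list was taken from genes that the study named. Alternatives were other pseudocounts (0.1 and 8), filters, scalings, covariates, quality weights, a replicate block, 1 treatment at a time, all 16 mice, and each mouse left out. The fits were tested on simulated data. Values of some list members are not reported here. Tables were made with Python 3.11.15 and pandas 2.3.3.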

Additional observations from a re-analysis of the deposited data

Results flagged for a closer look

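Among 72 named genes in the 2 genotypes (144 groups), 8 groups held a mouse far from the others by Dixon's 95% limit, where chance gives about 1 in 20. HT-Flx replicate 2 was high for Hdac4, at 2801 against 1854 to 2128 in the other HT mice, for Wfs1, at 5514 against 3606 to 4350, and for Fndc1, at 164 against 101 to 127. WT-Veh replicate 3 was high for Drd2, at 322 against 131 to 162 in the other WT mice, and for Pisd-ps2, at 195 against 152 to 159. WT-Flx replicate 3 was high for Col3a1, at 109 against 44.7 to 55.4, and low for Pvalb, at 838 against 1117 to 1132. WT-Veh replicate 4 was low for mt-Co2, at 55259 against 94372 to 96966.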

How the results depend on the processing

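With a pseudocount of 0.1 or 8, no filter, a mean of at least 100, upper-quartile or quantile scaling, or Eomes under 50 the same 4 genes passed. Treatment as a covariate gave 4 genes, the vehicle mice alone 11, the fluoxetine mice alone 2, sample quality weights 54, the bulb list as a covariate 10, all 16 mice 6 and all 16 with Eomes 1. Leaving out 1 mouse gave 1 to 9. Arid1b was at -0.47 in vehicle mice (limma adjusted p 0.0629), -0.46 in fluoxetine mice, -0.39 in all 16, -0.49 with Eomes (0.0512), -0.48 with treatment and Eomes and -0.50 with the choroid plexus list, and between -0.57 and -0.46 with 1 mouse left out. The causes were not tested.

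Replicate numbers are shared between groups. Deviations of same-numbered mice had r from -0.02 to 0.11 over 8 pairs, with a median of 0.024. Over 25 other pairs r ran from -0.09 to 0.07, with a median of -0.014. The highest values were thus in same-numbered pairs, though all were small, and a shared deviation was not tested. The replicate block gave 6 genes and -0.56 for Arid1b (adjusted p 0.0322).

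Reversed differences were Hdac4 at -0.10 in vehicle mice and -0.033 without WT-Flx replicate 3 (-0.033 to 0.13 with 1 mouse left out), Arc at 0.14 with the block and 0.024 in all 16, Sox11 at -0.0018 in vehicle mice and -0.016 in all 16, Meis2 at -0.19, Lhfpl3 at -0.10, Calb2 at -0.77 and Arhgef11 at 0.081 in all 16, Col3a1 at -0.26 in fluoxetine mice and Tagln at 0.039 in vehicle mice. Of the 1983 alternatives for 71 other named genes, 1922 kept direction and side of the threshold, 15 no longer passed, 34 newly passed and 12 reversed.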

Other observations

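Genes of fast-spiking, parvalbumin-expressing interneurons were listed after Pvalb, Syt2, Cox6a2, Cplx1 and Lynx1 had been seen among the lower values. Their counts are therefore a description without a test, and the count of lower genes was in part fixed by this choice. Of 16 such genes, 13 had a difference below 0 with a median of -0.13, and 6 were lower and 0 higher at an unadjusted p under 0.05, beside 3.04% and 3.66% of all genes. The 6 were Pvalb (-0.48), Syt2 (-0.54), Cox6a2 (-0.85), Cplx1 (-0.20), Lynx1 (-0.22), which encodes a brake on nicotinic receptors, and the heavy neurofilament gene Nefh (-0.18). Among them, Nefh alone had not been seen before the list was made. The potassium channel genes Kcnc1 and Kcnc2, which let these cells fire fast, were at -0.06 and -0.03, Kcna1 at -0.01, and Lhx6, a transcription factor that specifies them, at 0.09.

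Esr1, the estrogen receptor alpha, ran from 93.2 to 208 in HT mice, with a median of 155, and was 47.6 in WT-Flx replicate 3 and 89.7, 68.3 and 53.0 in WT-Veh replicates 2, 3 and 4. The groups did not overlap (difference 1.15, limma adjusted p 0.106), and in the left-out mice the HT mouse, at 133, was above the WT mice, at 54.1 to 95.2. Esr1 passed with all 16 mice (difference 1.04, limma adjusted p 0.0435) but not with log2(Eomes + 1) as a covariate (1.06, 0.127).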
